A study of Mus musculus with 8 samples.

Results

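The S100 genes encode small calcium-binding proteins, and 8 of them that are known from mesenchymal and skeletal cells were described in descendants of hypertrophic chondrocytes of the mouse tibia. The members were S100a1, S100a4, S100a6, S100a10, S100a11, S100a13, S100a16 and S100b, which are 8 of 48490 genes in the table, and all 8 passed the filter on low values. They were chosen by family and by the measured FPKM of S100a6, which was far higher in LoF than in WT. Values of S100a6, and of every member in LoF against WT, are therefore given as a description with no test.

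GoF (gain of function) libraries came from Col10a1Cre;Rosa26-Tdtomato mice with 1 Ctnnb1 allele lacking exon 3, which stabilises β-catenin, through which canonical Wnt signals reach the nucleus. LoF (loss of function) libraries came from Col10a1Cre;Rosa26-Tdtomato mice with Ctnnb1 deleted on both alleles, and WT libraries from mice with the Cre and the reporter alone. All mice were at postnatal day 5, and the Cre acts where Col10a1, a gene of hypertrophic chondrocytes, is or was expressed, so the reporter marks cells with that history. Each library was made from 70 hand-picked tdTomato-positive cells of the proximal tibia, with 2 GoF, 4 LoF and 2 WT libraries. The labels do not say whether a group's libraries came from separate animals, and p-values thus reflect a spread that may be technical.

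S100 proteins carry the paired helix-loop-helix calcium sites called EF-hands, have no enzyme activity, and act by binding other proteins as dimers when calcium rises. Some members also leave the cell and bind receptors such as RAGE (Ager). S100a10 is an exception that no longer binds calcium and forms a stable complex with annexin A2 at membranes. In mouse cartilage, S100a1 and S100b are known as targets of the SOX transcription factors of chondrocytes, while S100a4 and S100a6 are widely used as genes of fibroblasts and other stromal cells.

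Of the 8 members, 7 lie on chromosome 3 (mm10). S100a1 (90511034 to 90514392, minus strand), S100a13 (90514435 to 90524581), S100a16 (90537254 to 90543151), S100a4 (90603771 to 90606045) and S100a6 (90612882 to 90624181) lie in 1 cluster. S100a11 (93520488 to 93526287) and S100a10 (93555080 to 93564643) lie as neighbours 3009.5 and 3044.0 kb from the left end of S100a1. S100b stands alone on chromosome 10 (76253853 to 76261159). Its gene overlaps Dip2a on the other strand, which was at most 3.57 FPKM, and since the Smart-seq2 protocol keeps no strand, reads in the overlap cannot be told apart.

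S100a1 and S100a13 point away from each other with only 42 bases between their annotated ends, so both genes have the same DNA as their promoter region. The RefSeq promoter windows of the pair (250 bases before to 50 after each start) share 204 bases. This stretch is shown because the pair differed in their pattern across genotypes. The plus strand of chr3:90514393-90514434 (GRCm38.p6, the build also called mm10) is given 5′ to 3′ with its single CG dinucleotide in capitals. The S100a11 upstream stretch, chr3:93520246-93520487 on the plus strand, is shown because S100a11 had the largest tested difference among the members, and its capitals mark matches to the AP-1 motif.
S100a1-S100a13: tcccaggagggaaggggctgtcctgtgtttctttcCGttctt
S100a11: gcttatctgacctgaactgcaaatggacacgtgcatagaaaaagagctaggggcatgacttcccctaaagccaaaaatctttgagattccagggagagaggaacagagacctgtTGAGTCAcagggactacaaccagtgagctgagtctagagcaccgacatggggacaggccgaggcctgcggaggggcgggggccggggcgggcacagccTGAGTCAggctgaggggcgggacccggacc

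RefSeq promoter windows of 300 bases were at hand for 7 of the 8 members and were searched on both strands. The TCF/LEF motif, through which β-catenin acts on DNA (CTTTGAT, read ATCAAAG on the other strand), was in the windows of 0 members and in 3.73% of 32851 mouse promoter windows. The SOX motif CTTTGTT, read AACAAAG on the other strand, was in those of 0 members and in 5.85% of all windows. The AP-1 motif TGACTCA, read TGAGTCA on the other strand, was in the window of 1 member, S100a11, with matches 128 and 30 bases before the gene, and in 5.2% of all windows. The TCF/LEF and SOX motifs share the letters CTTTG, and a match or its absence describes only these letters.

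Across the deposited table, FPKM (fragments per kilobase of gene and per fixed number of fragments) summed to 293194 to 382101 per library, and 12587 to 13944 genes were above 0. Relative depth, read from low values, was 0.900 to 1.16 of that of WT library 2, and absolute read totals are unknown. Y-linked transcripts were found in both GoF libraries and in replicates 2 and 3 of LoF, and Xist in replicates 1 and 4 of LoF and in both WT libraries, so sex and genotype cannot be told apart from the GoF and WT libraries alone. Ctnnb1 averaged 79.3 ± 10.4 FPKM in GoF (SD, n = 2), 74.96 ± 7.17 in LoF (SD, n = 4) and 141.7 ± 5.98 in WT (SD, n = 2), as 1 value per gene that does not show which exons were transcribed. In bulk RNA, a change in the number of cells of a type cannot be told apart from a change in RNA per cell.

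Markers of the cells a pool could hold differed between the groups. The 5 hypertrophic chondrocyte markers summed to 683.3 and 705.9 FPKM in GoF, 100.1 to 190.1 in LoF, and 265.9 and 266.1 in WT. Col10a1 had 189.6 and 177.4 FPKM in GoF, 9.61 to 113.9 in LoF, and 6.24 and 20.5 in WT. Pth1r, also on that list, was lower in GoF (25.0 and 32.2 FPKM) than in WT (45.2 and 49.5). Summed FPKM of 6 marrow stromal markers was 47.7 and 76.0 in GoF, 593.1 to 1843 in LoF, and 356.7 and 103.8 in WT, and their defining chemokine gene Cxcl12 was at 0.674 and 0 FPKM in GoF. Of these 6, Cxcl12, Kitl, Vcam1 and Pdgfrb were lower in both GoF libraries than in any LoF library, while Lepr had 38.1 and 56.9 FPKM in GoF, 2.15 to 32.6 in LoF, and 51.3 and 27.0 in WT, and the Pdgfra ranges of GoF and LoF overlapped. The 6 markers thus did not move as 1 group, the sum in LoF was mostly Cxcl12, and the word stromal is met only in part in GoF. The 6 fibroblast markers were higher in sum in GoF than in LoF, the reverse of the S100 sum, with 1413 and 1533 FPKM in GoF, 143.1 to 230.4 in LoF, and 298.5 and 701.7 in WT. Dcn and Lum made up nearly all of that sum in GoF, Col3a1 was at 3.06 and 0.538 FPKM in GoF and 92.7 to 136.4 in LoF, and Dpt was at 0 in all 8 libraries. The 6 adipocyte markers were high in LoF as the S100 sum was, with 4.44 and 0.809 FPKM in GoF, 501.5 to 773.6 in LoF, and 115.6 and 19.5 in WT, and Adipoq was at 0 in both GoF libraries. The 6 pericyte and smooth muscle markers were too in sum, with 2.60 and 3.72 FPKM in GoF, 67.9 to 177.2 in LoF, and 59.8 and 50.9 in WT, with Myh11 at 0 in all 8 libraries. Myl9 made up most of that sum in LoF, and the LoF and WT ranges of Acta2, Tagln, Mcam and Rgs5 overlapped. Summed FPKM of 8 osteoblast markers was 20780 and 20490 in GoF, 1156 to 2857 in LoF, and 14950 and 15880 in WT. Col1a1, Col1a2 and Ibsp made up most of the osteoblast sum in every library. Runx2 did not follow it, with 33.6 and 19.9 FPKM in GoF, 19.4 to 33.6 in LoF, and 38.2 and 63.7 in WT. The LoF and WT ranges of Bglap and Bglap2 overlapped. The 10 chondrocyte markers summed to 247.5 and 159.7 FPKM in GoF, 42.0 to 89.96 in LoF, and 78.3 and 65.9 in WT. Col2a1 and Col11a2 made up most of that sum in GoF. Sox5 went the other way, at 0 in both GoF libraries, 0.297 to 14.2 FPKM in LoF, and 7.09 and 4.03 in WT. The GoF and LoF ranges of Acan and Sox9 overlapped. The 6 erythroid genes summed to 894.6 and 1838 FPKM in GoF, 75.98 to 2273 in LoF, and 2557 and 10570 in WT. The 6 Schwann and glial markers summed to at most 4.25 FPKM, with their defining factor Sox10 at 0 in all 8 libraries. Whether these differences in markers took part in the S100 values below was not tested.

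S100a11 and S100a10, both partners of annexins, were the most abundant members on the per-length scale of FPKM in GoF and WT, while in LoF S100a6 stood beside S100a10. S100a11 was at or above the 97.8th percentile of the 12888 genes tested in every library, and S100b was between the 14.8th and the 61.0th. In GoF the order by mean was S100a11, S100a10, S100a6, S100a1, S100a16, S100a13, S100a4 and S100b. Between neighbours in that order, only S100a1 over S100a16, and S100a4 over S100b, were apart in that every GoF library of the upper gene exceeded every GoF library of the lower one. In LoF the order was S100a11, S100a6, S100a10, S100a13, S100a1, S100a4, S100a16 and S100b, and the ranges of S100a6 and S100a10 overlapped, as did those of S100a13, S100a1, S100a4 and S100a16 for each pair of neighbours. In WT the order was S100a11, S100a10, S100a1, S100a6, S100a13, S100a4, S100a16 and S100b, with overlapping ranges between neighbours from S100a1 to S100a16.

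The summed FPKM of the 8 genes was 533.6 and 864.7 in GoF, 1654, 2083.5, 1881.6 and 2193 in LoF, and 541.7 and 485.6 in WT. It made up 0.151% and 0.226% of all FPKM in GoF, 0.539% to 0.628% in LoF, and 0.167% and 0.141% in WT. The make-up of the sum differed as well. S100a6 supplied 16.3% and 16.2% of it in GoF, 15.3% to 33.1% in LoF, and 2.29% and 6.29% in WT. S100a1 supplied 14.4% and 14.3% in GoF, 2.41% to 4.92% in LoF, and 5.97% and 4.57% in WT, so it stood out in GoF.

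**Figure D1:**
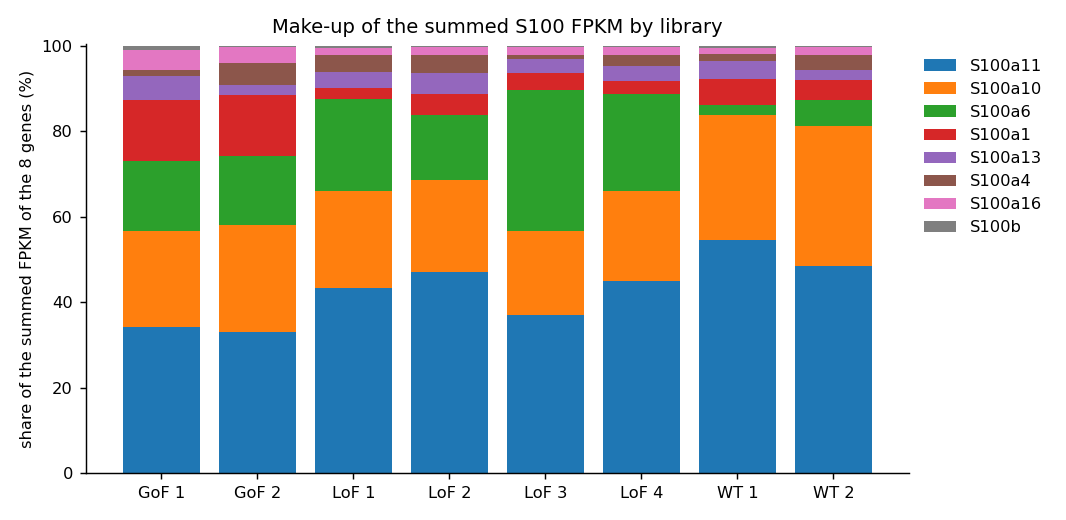
Share (%) of each gene in the summed FPKM of the 8 S100 genes, 1 stacked bar per library (2 GoF, 4 LoF, 2 WT). The S100a6 segment is 2.29% and 6.29% in WT and at least 15.3% in every mutant library, and the S100a1 segment is 14.3% or more in GoF.

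S100a6 encodes calcyclin, a protein first described in proliferating cells. It had 86.7 and 140.3 FPKM in GoF, 360.0, 318.1, 623.4 and 493.4 FPKM in LoF, and 12.4 and 30.6 FPKM in WT. No library of 1 group reached into the range of another, with GoF between LoF and WT. The ratio of group means was 20.9 for LoF over WT, which is the value that chose the gene, 5.28 for GoF over WT and 0.253 for GoF over LoF. On the log2(FPKM + 1) scale these differences were 4.40, 2.44 and -1.96. In the Xist libraries alone, S100a6 had 360.0 and 493.4 FPKM in LoF and the same 12.4 and 30.6 FPKM in WT.

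Over the 8 libraries, the expression pattern most like that of S100a6 among 10947 named genes outside the family was that of Igf2, the gene of an imprinted growth factor (Pearson's r = 0.983 on log2(FPKM + 1)). Igf2 had 13.4 and 25.5 FPKM in GoF, 39.3 to 131.6 in LoF, and 1.61 and 4.25 in WT. Next came Mettl23 (r = 0.971), Lgals3bp (r = 0.959), Sestd1 (r = 0.957) and Plcl2 (r = 0.941). These correlations are a description over n = 8 libraries that share their 3 genotypes. Lgals3bp, which encodes a secreted glycoprotein that binds galectins, had 21.3 and 21.1 FPKM in GoF, 39.6 to 60.9 in LoF, and 12.3 and 12.5 in WT.

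S100a4, often called fibroblast-specific protein, binds the heavy chain of non-muscle myosin. It had 6.70 and 43.1 FPKM in GoF, 67.9, 86.2, 17.9 and 54.2 FPKM in LoF, and 8.00 and 16.8 FPKM in WT. GoF library 2 lay within the LoF range and GoF library 1 below both WT libraries. LoF library 3 had the highest S100a6 and the lowest S100a4 of the LoF group, so the S100a6 to S100a4 ratio was 12.95 and 3.26 in GoF, 3.69 to 34.8 in LoF, and 1.55 and 1.82 in WT. Summed FPKM of 5 endothelial markers was 56.98 in LoF library 3, 0.564 to 6.83 in the other LoF libraries, and at most 1.19 in GoF and WT. Whether endothelial RNA took part in the S100 values of LoF library 3 was not tested. Neither comparison of GoF passed for S100a4 (limma, adjusted p = 0.267 against LoF, log2 difference -1.44 with a 95% interval of -3.10 to 0.21, and adjusted p = 0.852 against WT, 0.54 with an interval of -1.37 to 2.45).

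**Figure D2:**
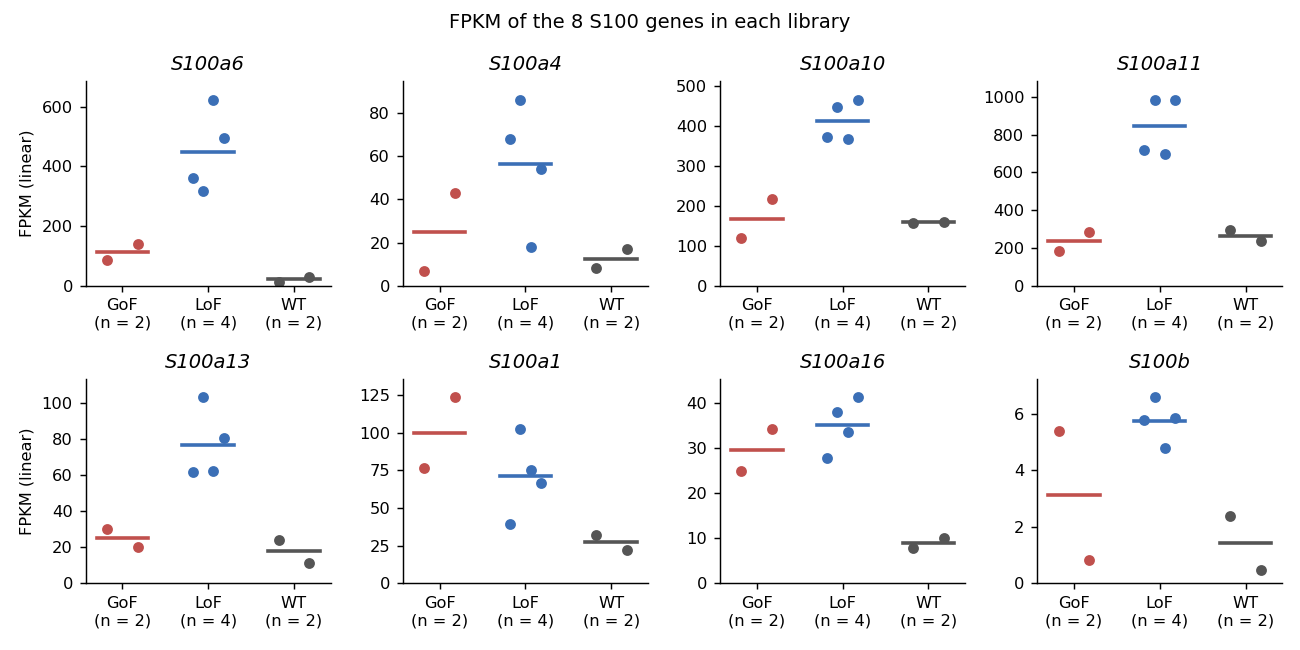
FPKM (linear axes from 0) of each S100 gene, with 1 point per library and a bar at the group mean for GoF (n = 2), LoF (n = 4) and WT (n = 2). S100a10, S100a11 and S100a13 are highest in LoF, S100a1 and S100a16 are lowest in WT, and S100a6 has 3 separate levels.

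GoF against LoF sets the opposite alleles of β-catenin against each other. In GoF, S100a10, S100a11 and S100a13 were lower than in LoF, 0 members were higher and 4 of the 7 tested did not pass. The background in the same comparison was 5.68% of 12888 genes lower and 5.97% higher. The median log2 difference of the 7 members was -1.34, beside -0.17 over all genes tested, a shift that median ratio scaling brought to -0.05. Calls are from limma with Benjamini-Hochberg adjustment over all tested genes, at an adjusted p under 0.05. All 3 calls were lost without GoF replicate 1 (adjusted p = 0.118 for S100a10, 0.0565 for S100a11 and 0.105 for S100a13), and 2 of them with no mean-variance trend (adjusted p = 0.0508 for S100a10 and 0.05 for S100a13). The LoF libraries are those that entered the choice of S100a6.

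S100a11 binds annexin A1 and is known from membrane repair and growth control. It had 182.7 and 286.1 FPKM in GoF, against 717.6, 981.7, 697.5 and 984.7 FPKM in LoF. The highest GoF library was below 0.5 of the lowest LoF library, and the log2 difference was -1.86 (SE 0.27, adjusted p = 0.00203 in limma). Within the libraries holding Y-linked transcripts, the values were the same 182.7 and 286.1 FPKM in GoF and 981.7 and 697.5 in LoF.

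S100a10, the light chain of the annexin A2 complex, had 120.2 and 216.4 FPKM in GoF, against 373.4, 447.3, 366.9 and 466.4 FPKM in LoF. The groups did not overlap, and the log2 difference was -1.34 (SE 0.27, adjusted p = 0.0104 in limma). Its WT libraries had 158.4 and 159.2 FPKM, between the GoF values.

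S100a13 takes part in the release of growth factors and cytokines that lack a signal peptide, such as Fgf1. It had 30.2 and 20.2 FPKM in GoF, against 61.9, 103.2, 62.1 and 80.5 FPKM in LoF. No GoF library reached the LoF range, and the log2 difference was -1.57 (SE 0.37, adjusted p = 0.0233 in limma). This call was lost in 6 of 16 alternatives, among them the replicate block (adjusted p = 0.104) sex as a covariate (adjusted p = 0.0635), and fits without LoF replicate 2 (adjusted p = 0.0566) or GoF replicate 2 (adjusted p = 0.207).

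The members that did not pass against LoF had intervals that reach across 0. S100a16 had 24.9 and 34.2 FPKM in GoF and 27.7, 38.0, 33.6 and 41.2 in LoF, so the groups overlapped (log2 difference -0.24, 95% interval -0.94 to 0.45, adjusted p = 0.676 in limma). S100a1 had 76.8 and 123.6 FPKM in GoF and 39.8, 102.5, 75.4 and 66.8 in LoF, and it was the only member with a positive difference (0.53, interval -0.34 to 1.39, adjusted p = 0.445). S100b had 5.40 and 0.840 FPKM in GoF and 5.77, 6.57, 4.80 and 5.85 in LoF, with GoF library 1 inside the LoF range (difference -0.97, interval -2.27 to 0.34, adjusted p = 0.350).

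**Figure D3:**
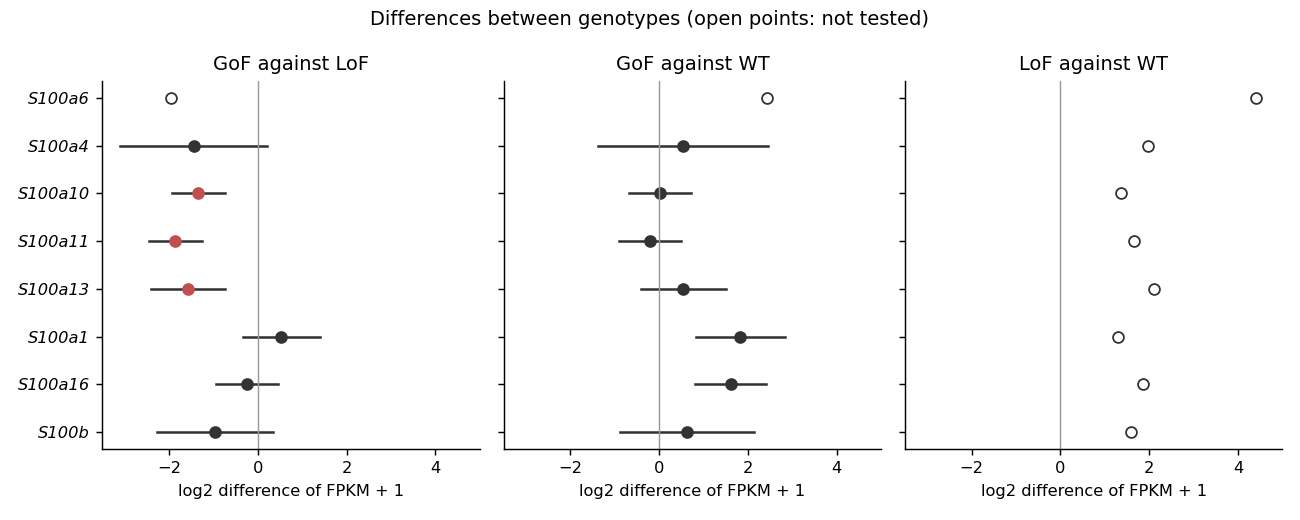
Differences of mean log2(FPKM + 1) for each gene in the 3 comparisons, with 95% intervals from limma where a test was made and open points where none was. Against LoF, S100a10, S100a11 and S100a13 (red, adjusted p under 0.05) lie below 0, and against WT the intervals of S100a1 and S100a16 lie above 0 although their adjusted p did not pass.

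GoF against WT sets stabilised β-catenin against the unaltered gene. Both GoF libraries held Y-linked transcripts and both WT libraries Xist, so sex and genotype cannot be told apart in this comparison. None of the 7 members tested passed in limma, with 0 higher and 0 lower, beside a background of 1.41% of genes higher and 0.9% lower. At an unadjusted p under 0.05 there were 2 members, S100a1 and S100a16, beside 14.3% of all tested genes in either direction. The median log2 difference of the 7 members was 0.54, beside -0.08 over all genes.

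S100a16, a widely expressed member, had 24.9 and 34.2 FPKM in GoF, against 7.91 and 9.99 FPKM in WT. Each GoF library was above both WT libraries, and the log2 difference was 1.61 (95% interval 0.81 to 2.41, adjusted p = 0.0505 in limma). The adjusted p lay just past the threshold and was below it in 4 of 16 alternatives (from 0.0208 with median ratio scaling up to 0.337 over all alternatives). The 4 LoF libraries, at 27.7 to 41.2 FPKM, also lay above both WT libraries.

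S100a1, a regulator of calcium handling in muscle, had 76.8 and 123.6 FPKM in GoF, against 32.3 and 22.2 FPKM in WT. The groups did not overlap, and the log2 difference was 1.82 (interval 0.82 to 2.82, adjusted p = 0.0710 in limma). The adjusted p was below 0.05 in 2 of 16 alternatives (0.0324 with median ratio scaling and 0.0409 without LoF replicate 1). With sex as a covariate the difference was 1.07 (adjusted p = 0.565), and within LoF the libraries with Y-linked transcripts had 102.5 and 75.4 FPKM while those with Xist had 39.8 and 66.8. The patterns most like S100a1 over the 8 libraries were those of Fgf13 (Pearson's r = 0.955), Tbc1d14 (r = 0.952), Ncmap (r = 0.950), Anxa2 (r = 0.946) and Ly6a (r = 0.942).

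S100a10, S100a11 and S100a13 did not pass against WT. S100a10 had a log2 difference of 0.02 (interval -0.67 to 0.71, adjusted p = 1 in limma). S100a11 had 296.2 and 235.0 FPKM in WT and a difference of -0.21 (interval -0.89 to 0.48, adjusted p = 0.840). S100a13 had 24.1 and 11.4 FPKM in WT and a difference of 0.54 (interval -0.41 to 1.50, adjusted p = 0.650). S100b, the glial and cartilage member, had 2.39 and 0.471 FPKM in WT and a difference of 0.62 (interval -0.89 to 2.13, adjusted p = 0.759). The genes with patterns most like S100b were Snhg6 (r = 0.958), Adgrl3 (r = 0.939), Ppm1a (r = 0.934), Itpr1 (r = 0.926) and Metrn (r = 0.924), as a description over n = 8 libraries.

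LoF against WT is the contrast that entered the choice of the members, so its values support nothing. In 8 of 8 members every LoF library lay above both WT libraries, beside a background of 11.5% of tested genes with such a separation. The log2 differences were 4.40 for S100a6, 2.11 for S100a13, 1.98 for S100a4, 1.85 for S100a16, 1.66 for S100a11, 1.59 for S100b, 1.37 for S100a10 and 1.30 for S100a1, and their median was 1.76 beside 0.06 over all genes. Without S100a6 the differences thus ran from 1.30 to 2.11. GoF and LoF are each set against the same WT libraries here, so the values for both mutants are not independent of each other.

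The neighbours S100a1 and S100a13 (sequence above) differed in their pattern within the libraries. The S100a1 to S100a13 ratio of FPKM was 2.55 and 6.11 in GoF, 0.643, 0.993, 1.22 and 0.830 in LoF, and 1.34 and 1.94 in WT. The 3 groups did not overlap, with GoF highest and LoF lowest. Within LoF the ratio was 0.993 and 1.22 in the libraries with Y-linked transcripts and 0.643 and 0.830 in those with Xist. Both GoF libraries held Y-linked transcripts and both WT libraries Xist, so sex and genotype cannot be told apart between GoF and WT. A ratio within a library does not depend on its scaling, and this pair was chosen after its values were seen. S100a11 and S100a10, the other close pair, kept the same order in all 8 libraries, with S100a11 above S100a10.

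**Figure D4:**
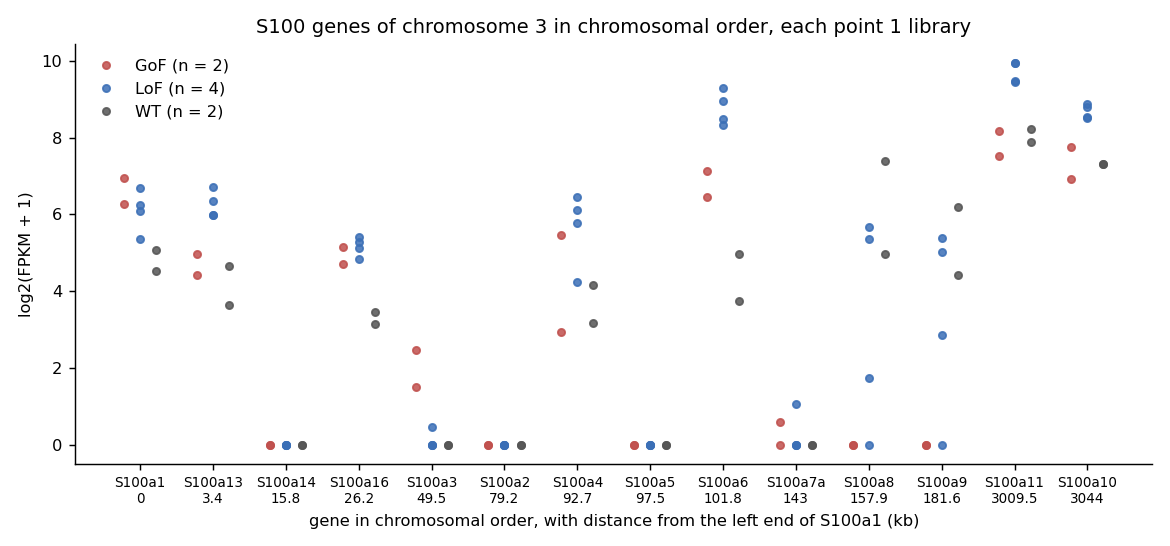
log2(FPKM + 1) of the 14 S100 genes of chromosome 3 in chromosomal order, with the distance of each gene from the left end of S100a1 in kb, and 1 point per library (2 GoF, 4 LoF, 2 WT). Members alternate with genes listed at 0 in all libraries (S100a14, S100a2 and S100a5), and S100a8 and S100a9 are at 0 in both GoF libraries.

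Of the 9 other S100 genes, 5 were listed at 0 in all 8 libraries (S100a2, S100a5, S100a14, S100g and S100z), 3 passed the filter, and S100a7a was at 0.507 FPKM in GoF library 2, 1.08 in LoF library 4 and 0 elsewhere. S100a3 had 1.82 and 4.56 FPKM in GoF, was listed at 0 in 3 LoF libraries and at 0.383 in the other, and was listed at 0 in both WT libraries. GoF exceeded LoF in the test (limma, adjusted p = 0.0172), a call lost in 2 of 16 alternatives, and did not pass against WT (adjusted p = 0.0654). Only the GoF libraries reached the 1 FPKM of the filter, so S100a3 was tested only because GoF was high. Its call is thus a description and supports nothing. S100a3 lies between S100a16 and S100a4 in the cluster.

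S100a8 and S100a9 encode the calprotectin subunits of neutrophils. S100a8 was listed at 0 in both GoF libraries, had 0, 50.2, 2.34 and 40.3 FPKM in LoF, and 166.0 and 30.3 FPKM in WT. S100a9 followed it, at 0 in both GoF libraries, 0, 31.2, 6.23 and 40.4 FPKM in LoF, and 71.8 and 20.5 FPKM in WT. Neither passed in limma in any of the 3 comparisons (adjusted p = 0.0937 and 0.102 for GoF against WT, the smallest). Of 10 myeloid markers, whose sum was 11.99 and 8.62 FPKM in GoF, 10.7 to 22.9 in LoF, and 45.9 and 29.2 in WT, the neutrophil granule gene Camp was at 0 in both GoF libraries, 15.5, 6.25, 0 and 2.20 in LoF, and 25.6 and 10.4 FPKM in WT. Mpo, Elane and Ngp were also higher in both WT libraries than in either GoF library. Other markers of the list differed from Camp. Lyz2 had 8.64 and 3.09 FPKM in GoF, 3.01 to 8.72 in LoF, and 8.77 and 3.44 in WT. Cd68 was higher in GoF (2.76 and 3.45 FPKM) than in WT (0 and 1.64), with 0 to 6.26 in LoF. Ptprc, Adgre1 and Csf1r were below 1 FPKM in GoF and WT, and Itgam was at 0 in all 8 libraries. Whether myeloid RNA took part in S100a8 and S100a9 was not tested.

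The annexins, the best-known partners of S100 proteins, moved in part. Of 12 annexin genes 9 were tested. Against LoF, Anxa3 and Anxa7 were higher in GoF, Anxa1 was lower and 6 did not pass, beside a background of 5.97% of genes higher and 5.68% lower. Against WT, Anxa2 and Anxa3 were higher in GoF and 7 did not pass, beside a background of 1.41% of genes higher and 0.9% lower. In LoF against WT, Anxa1 was higher in LoF and 8 did not pass, beside a background of 0.566% of genes higher and 0.667% lower. The median log2 difference of the 9 was 0.35, 1.22 and 0.83 in these comparisons, beside -0.17, -0.08 and 0.06 over all genes.

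Anxa1, which encodes the annexin bound by S100a11, had 76.7 and 142.0 FPKM in GoF, 330.0, 220.8, 220.4 and 295.2 in LoF, and 91.7 and 68.7 in WT. It fell by 1.32 on the log2 scale in GoF relative to LoF (adjusted p = 0.0228 in limma, lost in 5 of 16 alternatives) and was 1.71 higher in LoF than in WT (adjusted p = 0.0332, lost in 13 of 16). Its high group was thus LoF, as for S100a11 by level.

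Anxa2, which encodes the partner of S100a10, had 615.4 and 618.9 FPKM in GoF, 364.8, 516.7, 557.6 and 524.9 in LoF, and 290.1 and 219.7 in WT. Its level in GoF exceeded that in WT (log2 difference 1.29, SE 0.28, adjusted p = 0.0444 in limma), a call lost in 12 of 16 alternatives (adjusted p up to 0.391). It did not pass against LoF (difference 0.35, interval -0.19 to 0.89, adjusted p = 0.417). The S100a10 to Anxa2 ratio within libraries was 0.195 and 0.350 in GoF, 1.02, 0.866, 0.658 and 0.889 in LoF, and 0.546 and 0.724 in WT. GoF lay below all other libraries in this ratio, and LoF and WT overlapped. Within LoF it was 0.866 and 0.658 in the libraries with Y-linked transcripts and 1.02 and 0.889 in those with Xist. Sex and genotype cannot be told apart between GoF and WT for this ratio. This pair is the known complex, and its ratio was computed after the levels were seen.

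**Figure D5:**
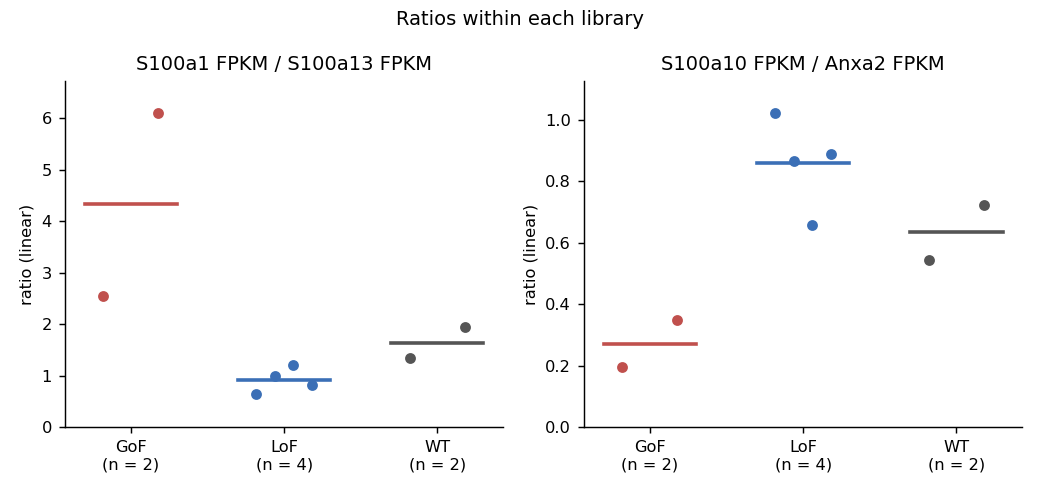
Ratio of FPKM within each library (linear axes from 0) for S100a1 over S100a13 and for S100a10 over Anxa2, with 1 point per library and a bar at the group mean (GoF n = 2, LoF n = 4, WT n = 2). GoF has the highest S100a1 to S100a13 ratios (2.55 and 6.11) and the lowest S100a10 to Anxa2 ratios (0.195 and 0.350). Both GoF libraries held Y-linked transcripts and both WT libraries Xist.

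Anxa3 had 127.8 and 97.7 FPKM in GoF, 44.5 to 59.97 in LoF, and 33.3 and 25.8 in WT. It was higher in GoF than in LoF (log2 difference 1.07, adjusted p = 0.0301 in limma) and than in WT (1.90, adjusted p = 0.0130). These calls were lost in 8 and 7 of 16 alternatives. Anxa7 had 43.5 and 30.4 FPKM in GoF and 3.22 to 20.9 in LoF (difference 2.07, adjusted p = 0.0451, lost in 12 of 16).

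Of 16 other binding partners 13 were tested, and 1 passed in any comparison. That call was in GoF against LoF, where the background was 5.97% of all tested genes higher and 5.68% lower. Myh9, the non-muscle myosin heavy chain bound by S100a4, had 2.04 and 1.18 FPKM in GoF, against 6.84, 6.14, 8.81 and 8.88 FPKM in LoF (log2 difference -1.74, adjusted p = 0.0323 in limma, lost in 8 of 16 alternatives). Cacybp, which encodes the calcyclin-binding partner of S100a6, did not pass in any (adjusted p = 0.692 against LoF and 0.868 against WT for GoF, and 0.994 for LoF against WT), and neither did Fgf1. The median of the 13 was -0.26, -0.16 and 0.02 in GoF against LoF, GoF against WT and LoF against WT.

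Of 6 receptor genes, all tested, Bsg was higher and Cd36 lower in GoF than in LoF, Cd36 was higher in LoF than in WT, and 0 passed in GoF against WT in limma. The background was 5.97% of genes higher and 5.68% lower in GoF against LoF, and 0.566% higher and 0.667% lower in LoF against WT. Bsg, which encodes the basigin receptor, had 245.4 and 323.9 FPKM in GoF and 101.5 to 183.7 in LoF (log2 difference 1.03, adjusted p = 0.0373, lost in 11 of 16 alternatives). Cd36, a scavenger receptor and fatty acid transporter gene, was listed at 0 in both GoF libraries, had 23.3 to 54.95 FPKM in LoF (adjusted p = 0.000266 in limma), and 1.38 and 0 in WT. Outside LoF only WT library 1 reached the 1 FPKM of the filter, so Cd36 was tested only because LoF was high. Its calls are thus a description and support nothing. The call in LoF against WT (adjusted p = 0.00657) was lost in 6 of 16 alternatives, among them the replicate block (adjusted p = 0.124) and sex as a covariate (adjusted p = 0.0606), and in fits without WT replicate 2 (adjusted p = 0.108), GoF replicate 1 (adjusted p = 0.0681) or GoF replicate 2 (adjusted p = 0.0696). Ager, the RAGE gene, did not pass in any comparison (adjusted p = 0.136, 0.588 and 0.766).

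Annexin A2 and S100a10 together bind plasminogen at the cell surface. Of 8 genes of that system 6 were tested, beside a background in GoF against LoF of 5.97% of all tested genes higher and 5.68% lower. In GoF against LoF, Plaur, the urokinase receptor gene, was higher (log2 difference 1.98, adjusted p = 0.0301 in limma) and Serpine2, a protease inhibitor gene, lower (-1.27, adjusted p = 0.0138). The calls were lost in 7 and 5 of 16 alternatives, and 0 genes passed in the other comparisons.

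Of 16 other EF-hand genes 13 were tested. In GoF against LoF, Rcn3 and Rcn1, which encode EF-hand proteins of the secretory pathway, were higher and 11 did not pass. The background in that comparison was 5.97% of genes higher and 5.68% lower. Rcn3 had 371.8 and 309.9 FPKM in GoF, against 127.3, 84.4, 103.1 and 130.7 FPKM in LoF (log2 difference 1.62, adjusted p = 0.00298 in limma). Rcn1 had 148.4 and 137.3 FPKM in GoF, against 49.5 to 69.7 FPKM in LoF (1.28, adjusted p = 0.0104). The Rcn1 call was lost without GoF replicate 1 (adjusted p = 0.0925) or 2 (adjusted p = 0.0671), and the Rcn3 call without GoF replicate 1 (adjusted p = 0.0586). Rcn3 was also lower in LoF than in WT (-1.42, adjusted p = 0.0295, lost in 11 of 16 alternatives), beside a background of 0.667% of genes lower. In GoF against WT 0 of the 13 passed.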

How the data were processed

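FPKM per gene and library, made and deposited by the authors, were used as deposited. The submitters' processing notes list HISAT2, SAMtools 0.1.18, Cufflinks, HTSeq and mm10 without saying what each was used for, and the annotation release and the strand setting were not given in the sources used here. Of 48555 lines, 65 repeated a gene ID and were dropped. Of the gene IDs, 84.8% matched GENCODE M21 with their version, with strands taken from there and starts given 1-based. Promoter sequences are from RefSeq (GRCm38.p6). Groups came from the labels.

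Values were log2(FPKM + 1), which understates differences of low genes, for the 12888 genes that reached an FPKM of 1 in 2 or more libraries. A limma model (version 3.58.1, R 4.3.3) with a mean for each of the 3 groups and a mean-variance trend was fitted to all libraries, on 10.1 total degrees of freedom, and adjusted over all genes. The code was tested on simulated data. FPKM of short genes rest on few fragments, and without read counts no counting interval was computed. Reads shared by near-identical copies make values uncertain.

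The members and lists were chosen with earlier results of these data known. The naming rule took all members, other S100 genes with a value, up to 4 called genes per partner list and comparison, and the 5 genes most like S100a6, S100a1 and S100b. S100a6 was left untested also against WT, since its WT level entered its choice. Alternatives were the replicate block, sex as a covariate, leaving out each library, a pseudocount of 0.1, no filter, no trend, scaling by median ratios or quantiles, and a fit of only the pair of groups compared. Those for partner genes were added after the data were seen.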

Additional observations from a re-analysis of the deposited data

Results flagged for a closer look

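In the LoF group of 4, S100a3 stood apart in library 4, at 0.383 FPKM with the other LoF libraries at 0, and S100a7a did too, at 1.08 FPKM in library 4 with the others at 0. Among 37 genes examined these were the 2 whose gap to the nearest library relative to the range exceeded Dixon's critical value. With all other LoF libraries at 0, any value above 0 exceeds it, so these flags carry no weight. The usual chance rate of about 5% of groups does not hold for such tied values.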

How the results depend on the processing

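Over 16 alternatives and 24 member differences (8 genes in 3 comparisons), the direction was kept in 379 of 384 values. That total includes S100a6 and all of LoF against WT, which entered the choice of the members, so the directions kept there support nothing. The 5 reversed values were in GoF against WT, and the cause was not tested. They were S100a10 at -0.34 with quantile normalization, and, among fits without 1 replicate, S100a10 (-0.40 to 0.44), S100a11 (-0.53 to 0.12), S100a4 (-0.72 to 1.80) and S100b (-0.28 to 1.52).

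Members higher in GoF than in WT, 0 as reported, numbered 2 with median ratio scaling (S100a1 and S100a16), 1 with a pseudocount of 0.1, 1 with no filter, 1 with quantile normalization, and 0 to 1 without 1 replicate (1 without LoF replicate 1, S100a1). Members lower in GoF than in LoF, 3 as reported, numbered 1 with no mean-variance trend and 0 to 3 without 1 replicate, with 0 only without GoF replicate 1.

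Genes higher and lower over the whole table, 769 and 732 in GoF against LoF, 182 and 116 in GoF against WT, and 73 and 86 in LoF against WT, moved more. Deviations from group means correlated between -0.007 and 0.03 for same-numbered libraries of different groups. In a group of 2 the deviations mirror each other, so these correlations cannot decide whether the numbers pair libraries. With the replicate block the counts were 427 and 300, 11 and 4, and 0 and 1 in that order, and of the member calls that of S100a13 was lost. With sex as a covariate 445 genes were lower in GoF against LoF, 6 higher and 5 lower in GoF against WT, and 6 and 8 in LoF against WT. With only the 2 groups compared the counts were 0 and 0 in both comparisons with WT. A pseudocount of 0.1 gave 112 higher in GoF against WT, and 36 and 47 in LoF against WT. LoF against WT gave 19 and 34 with no filter, 22 and 32 with no trend, and 80 and 147 with quantile normalization. Without 1 replicate the counts were 265 to 739 and 164 to 685 in GoF against LoF, 26 to 208 and 13 to 124 in GoF against WT, and 0 to 63 and 0 to 72 in LoF against WT. Counts moved by over 1.5 times without either GoF library in all 3 comparisons, without either WT library in both comparisons with WT, and without LoF replicate 2 (20 and 23) or 4 (36 higher) in LoF against WT. The groups of 2 libraries limit every comparison, and without read counts the depth behind a low FPKM is unknown.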
